A study of Arabidopsis thaliana with 8 samples.

Results

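Seed of Arabidopsis thaliana Col-0 that had taken up 30 µM abscisic acid (ABA) during 24 h of imbibition was compared with dry seed that had received no treatment. Each group had 2 arrays, chosen by their labels and by no measured value, so that 4 of the 8 arrays of the series enter the comparison. The other 4 arrays, 2 of seed imbibed for 24 h in water and 2 in 3 µM ABA, shared the fit and its estimate of spread, and the water arrays are set beside the results. All 8 arrays came from whole seed of 1 stock, and no mutation, other agent or seed age is given. The labels state neither the light nor the temperature of imbibition, nor whether the seed had germinated by 24 h. Nothing in them says whether the 2 arrays of a group are separate lots of seed, so the p-values cover no more than the spread among these arrays, possibly technical. The question is which changes of imbibition go ahead although ABA is present.

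A dry seed holds messenger RNA stored from its maturation on the plant, together with storage proteins, oil bodies and proteins that protect cells against drying. Taking up water restarts respiration, translation and transcription, and the stored transcripts are degraded while those for growth accumulate. ABA is the hormone that drives maturation and dormancy. Supplied during imbibition, it is known to hold back the emergence of the root, which requires loosening of cell walls, while rupture of the seed coat can still proceed.

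The values are deposited signals on a linear scale, and changes are differences of log2(signal + 3.99), where 3.99 is the 20th percentile of all deposited values. "Called" means an adjusted p under 0.05 in limma over 15922 probe sets, a probe set being the group of probes that stands for a transcript. The signals had been scaled to a common trimmed mean, with medians of 21.4 and 21.0 for dry seed against 33.6 and 32.6 on the 30 µM arrays. The top of the range differed more, and whether it is a limit of the measurement was not tested. The highest signal of any probe set other than a control was 3908 and 2322 on the dry arrays and 1479 and 1381 on the 30 µM arrays, so 222 probe sets with both dry signals above 1479 could only be lower in 30 µM ABA, and 218 of them were called lower. Of the genes described below, SIS, LTI30, M17, AtLEA4-1, LEA18, GRXC1, SRC2, PDC2, AT3G15280, AT4G36600, AT5G43770, AT1G27990 and AT5G45690 are among these. In 4 of 6 control ratios of 3' to 5' signal, a sign of RNA quality, dry and 30 µM arrays lay apart. In one set of control probe sets the dry arrays were higher, at 4.34 and 4.52 against 2.69 and 2.30 for actin, 1.81 and 1.69 against 0.556 and 0.520 for GAPDH and 1.10 and 1.01 against 0.722 and 0.882 for ubiquitin. In another set actin was lower in dry seed, at 1.05 and 0.895 against 1.13 and 1.18. The spike-in controls had geometric mean signals 267.8 and 278.9 on the dry and 147.1 and 186.3 on the 30 µM arrays. The part of these differences in the results below was not tested. The seed marker OLEO3, an oleosin of oil bodies, was bright on all 4 arrays, at 919 and 618 in dry seed and 325 and 463 in 30 µM ABA. Of 15 genes that mark pollen, root, guard cells, leaf and flower, 4 had a probe set of that name, and none was at 0. Their summed signal was 16.4 and 12.2 in dry seed and 63.1 and 61.5 in 30 µM ABA, and most of the rise came from SPCH, a regulator of the stomatal lineage, at 3.30 and 0.862 against 36.8 and 40.1. In whole seed, fewer cells of a type and less RNA per cell cannot be told apart.

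Imbibition in ABA went with large changes in both directions. Limma called 9995 of 15922 probe sets (62.8%), with 5851 (36.7%) that rose and 4144 (26.0%) that fell from dry seed to 30 µM ABA. Counts of called genes below are to be read against these shares. A change of at least 4-fold was called for 1807 probe sets that rose and 911 that fell, and one of at least 32-fold for 104 and 18. Among the 1193 genes tested with a symbol other than a locus code, 461 rose and 301 fell. The changes seen with separate arrays were alike: across probe sets, replicate A of 30 µM ABA minus dry A correlated with the same difference of the B arrays at r = 0.93, a description, since probe sets are not independent. The split between rises and falls depended on scaling. With the deposited scaling 58.5% of calls were rises and the median change over all probe sets tested came to 0.17, against 50.7% and -0.03 after quantile normalization, 34.8% and -0.41 with a common median and 83.0% and 0.79 with spike-in scaling. Changes are therefore to be read against these medians, and directions that turn with the scaling are named where they occur.

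**Figure D1:**
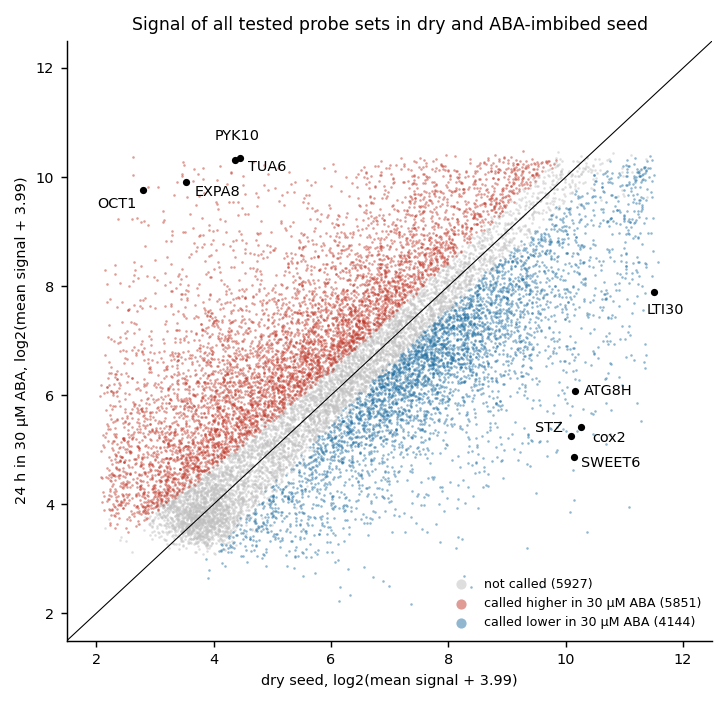
Mean signal of the 15922 probe sets in dry seed (x axis) and in seed after 24 h in 30 µM ABA (y axis), both as log2(signal + 3.99), with the line of equal signal. 5851 probe sets called higher lie above it and 4144 called lower below it, named genes are black points, and the flat upper edge on each axis is the top of the range, which lay higher in dry seed.

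Among called genes with a symbol, no overlap between groups and a mean log2 signal over the 8 arrays above the median of all probe sets tested, the 8 largest rises went from near the bottom of the signal range to near its top. OCT1, which encodes a carnitine transporter, gave signals 0.348 and 5.52 in dry seed and 783 and 938 in 30 µM ABA, a log2 change of 7.07 ± 0.31 (SE), adjusted p = 7.28e-08. The serine carboxypeptidase-like gene scpl44 gave 7.68 and 6.32 against 1110.0 and 1019 (6.61 ± 0.16 (SE), adjusted p = 3.2e-09). Both ABA arrays lay far above both dry arrays in these genes, and a lack of overlap was required by the rule. XTH19, for a xyloglucan-modifying wall enzyme, rose from 9.32 and 0.197 to 717 and 612 (6.48 ± 0.40 (SE)). NDB3, an external NAD(P)H dehydrogenase of mitochondria, went from 1.97 and 7.81 to 602 and 578 (6.15 ± 0.27 (SE)). DELTA-VPE, a vacuolar processing enzyme known from the seed coat, changed from 6.93 and 8.46 to 701 and 882 (6.08 ± 0.19 (SE)). The other 3 of the 8 highest, scpl48, EXPA8 and EXPA9, are described with their families. Since the dry signals were so low, the size of these changes depends on the pseudocount: that of OCT1 was 8.18 with a pseudocount of 1 and 5.54 with 16.

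By the same rule, the 8 lowest changes were of transcripts that were bright in dry seed. SWEET6, given with the sugar transporters, fell further than any of these 8 but lay below that median. STZ, a zinc finger repressor induced by salt and cold, had 1307 and 876 in dry seed and 34.9 and 33.3 in 30 µM ABA (-4.82 ± 0.33 (SE), adjusted p = 9.99e-07). SIS, a serine-rich protein induced by salt, had 1754 and 1707 against 105 and 141 (-3.79 ± 0.36 (SE)). SKP2A, an F-box protein that marks cell cycle factors for degradation, had 1205 and 1079.9 against 89.9 and 110.0 (-3.47 ± 0.29 (SE)). The dry arrays of all 3 were above the ABA arrays with no overlap, as the rule required. UGT72E1, a glucosyltransferase of monolignols, fell from 659 and 627 to 53.6 and 61.2 (-3.40 ± 0.21 (SE)). AGL67, a MADS-box factor of seed maturation, fell from 1079.6 and 1002 to 81.98 and 148 (-3.19 ± 0.30 (SE)), and ABA replicate B was well above replicate A. The other 3 of the 8 lowest, cox2, ATG8H and LTI30, are given with their groups.

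**Figure D2:**
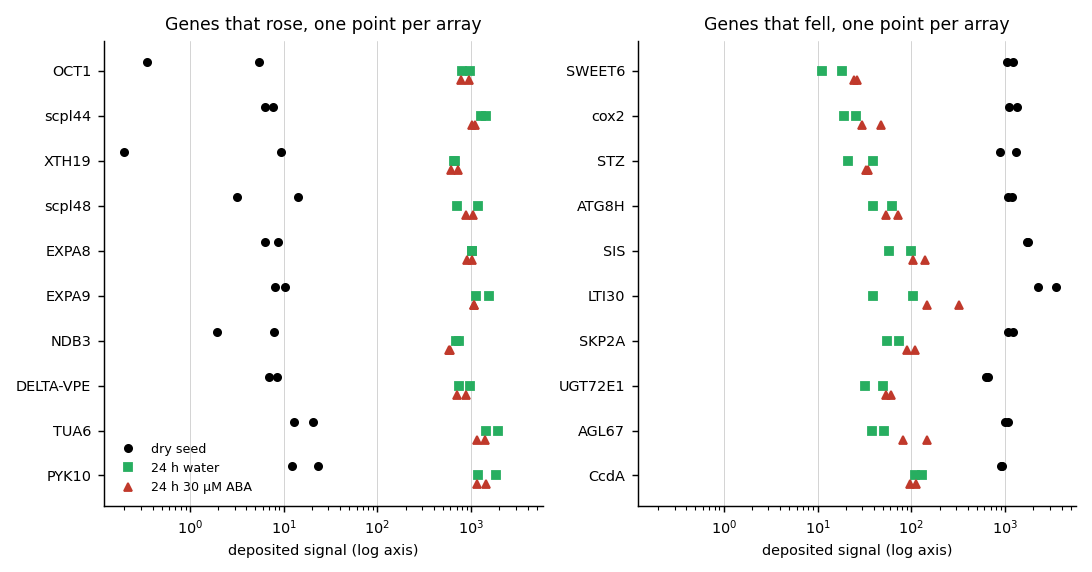
Deposited signal (log axis) of 10 genes that rose and 10 that fell between dry seed and 24 h in 30 µM ABA, with the water arrays for comparison, 1 point per array. In each gene shown the 2 arrays in 30 µM ABA lie apart from the 2 dry arrays. This was a condition for picking all of them but TUA6, PYK10, SWEET6 and CcdA. Both water points lie below both ABA points in SWEET6, cox2, SIS, LTI30, SKP2A, UGT72E1 and AGL67. They lie above both ABA points in scpl44, EXPA9, NDB3 and TUA6, and overlap the ABA points in the other genes.

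Most of the cell wall genes tested rose in ABA. The filter on mean signal over all 8 arrays favours genes bright in imbibed seed, and named members that it removed are not counted as tested. Expansins loosen walls, and of 11 tested (of 19 with a named probe set) 7 were called higher and 1 lower, with a median change of 1.42 against 0.17 over all probe sets. EXPA8 gave 8.64 and 6.33 in dry seed and 1021 and 906 in 30 µM ABA (6.40 ± 0.20 (SE), adjusted p = 1.31e-08). EXPA9 gave 10.4 and 8.14 against 1071 and 1062 (6.34 ± 0.19 (SE), adjusted p = 1.2e-08). The ABA signals lay far above the dry ones, with no overlap, which was required of the 8 highest. EXPA15, EXPA20 and EXPA4 also rose, by 3.63, 3.58 and 2.32. EXLA1, an expansin-like gene, went the other way, from 349 and 166 to 42.8 and 88.5 (-1.90 ± 0.40 (SE)), and EXPB2, EXPB3 and EXPB5 were not called (values from -0.08 to 0.27). XTH enzymes cut and rejoin xyloglucan, and 5 of 6 tested (of 10 named) rose, with a median of 2.33. XTH16 had 6.64 and 3.74 in dry seed and 400.2 and 338 in ABA (5.36 ± 0.20 (SE)), and XTH20 was not called at 0.08. In XTH18 and XTH33 the rise from dry seed, 2.36 and 2.30, stood beside 3.78 and 3.37 in water. ATPMEPCRB, a pectin methylesterase, rose from 0.757 and 2.88 to 13.6 and 31.4 (2.13 ± 0.55 (SE)), all near the bottom of the range, and without 30 µM replicate B it was no longer called (adjusted p = 0.0587).

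Tubulins form the microtubules that guide wall deposition and cell division, and 6 of 7 tested were called higher and 0 lower, with a median of 3.80 (limma counted 7 higher with spike-in scaling and 5 with a common median). TUA6, an alpha-tubulin, had 12.9 and 20.5 in dry seed and 1395 and 1149 in ABA (5.97 ± 0.22 (SE), adjusted p = 2.83e-08). Its ABA signals were 94.3% and 83.2% of the highest signal on their arrays. TUB5, a beta-tubulin, had 1.26 and 3.27 against 184 and 212 (5.03 ± 0.22 (SE)), and TUB1 and TUB6 rose by 4.03 and 3.80. TUA1 was not called, at 0.21. ACT11, an actin of reproductive tissue, rose from 0.282 and 5.04 to 43.1 and 50.9 (3.03 ± 0.35 (SE)). PRL, the MCM7 subunit of the helicase that licenses DNA replication, rose from 12.3 and 6.63 to 93.5 and 87.4 (2.84 ± 0.24 (SE), adjusted p = 3.73e-06). Of 4 histone genes HTB2, a core histone H2B, had 31.6 and 24.6 in dry seed and 53.8 and 69.4 in ABA (1.03 ± 0.23 (SE)), and was not called after quantile normalization or with a common median (adjusted p = 0.0636 and 0.105). HIS1-3, a linker histone induced by drought, fell from 696 and 449.8 to 52.04 and 73.98 (-3.09 ± 0.46 (SE)). HON4, of the linker histone family, changed by -0.56 ± 0.16 (SE), was not called without 30 µM replicate A (adjusted p = 0.125) and lay at 0.15 with spike-in scaling.

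Serine carboxypeptidase-like proteins are secreted or vacuolar hydrolases and acyltransferases, and 11 of 15 tested (of 29 named) rose and 0 fell, with a median of 3.17 (11 and 1 with a common median). Members removed by the filter, which favours genes bright in imbibed seed, are not in these counts. Besides scpl44, scpl48 had 14.1 and 3.15 in dry seed and 887 and 1044 in ABA (6.41 ± 0.37 (SE)). The gene scpl20 gave 18.2 and 12.8 against 1109 and 1039, and scpl29 gave 24.6 and 35.8 against 1145 and 1143. Their changes of 5.80 ± 0.23 (SE) and 5.09 ± 0.20 (SE) were far outside the spread between arrays. SCPL43, SCPL49, scpl21 and scpl47 were not called, with values from -0.20 to 0.49. RPN12a, a lid subunit of the proteasome, rose from 472 and 535 to 844 and 931 (0.81 ± 0.16 (SE)), and was not called with a common median (0.17, adjusted p = 0.4).

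Most autophagy genes tested fell. Autophagy encloses cytoplasm in vesicles for breakdown in the vacuole, and ATG8 is the ubiquitin-like protein that coats these vesicles. Of 11 autophagy genes tested 8 were called lower and 0 higher, with a median of -1.23; with spike-in scaling 5 were lower and 2 higher. ATG8H had 1083 and 1190.3 in dry seed and 54.01 and 72.8 in 30 µM ABA (-4.09 ± 0.38 (SE), adjusted p = 7.44e-06). APG8H, listed also as ATG8I, had 1848 and 1471 against 399 and 408 (-2.02 ± 0.19 (SE)). AT5G66930, named ATG101 after a subunit of the kinase complex that starts autophagy, had 432 and 374 against 73.3 and 71.6 (-2.41 ± 0.28 (SE)). The dry arrays were higher without overlap in these genes, which for ATG8H was required by the rule for the 8 lowest. ATG8E and ATG8C changed by -2.06 and -1.98, and ATG8F, ATG8D and APG8A, all called, by -1.23, -0.92 and -0.59. ATG8B, ATG8G and ATG3 were not called, at 0.44, 0.42 and 0.01. In water the median of the list was -1.25. For 10 of the 11 genes the 95% interval of 30 µM ABA minus water lay within 1 of 0 on the log2 scale.

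**Figure D3:**
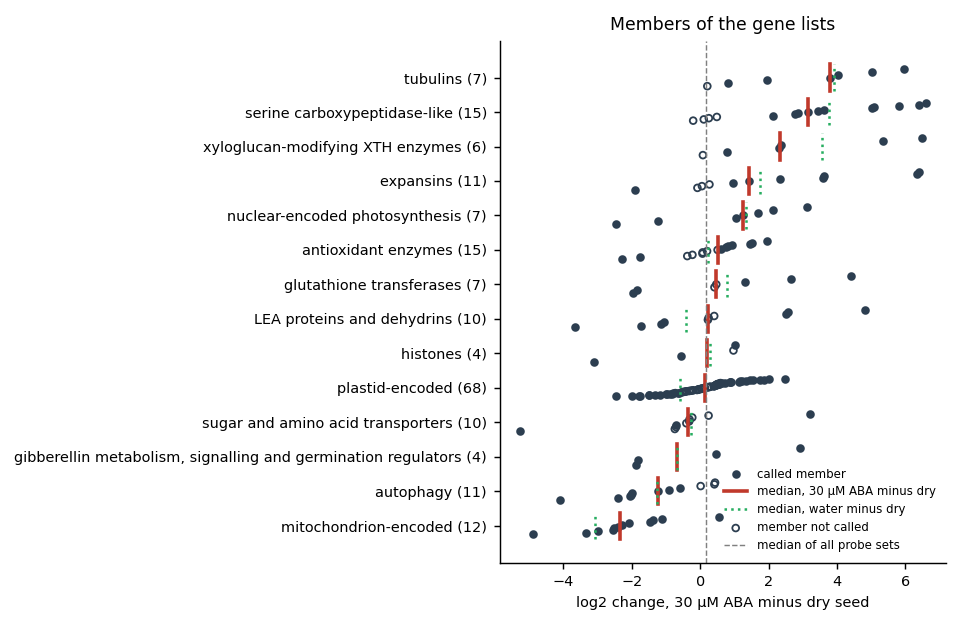
Log2 change from dry seed to 30 µM ABA of each member (points, filled if called) of the 14 gene lists with 4 or more genes tested, their number in brackets. Red bars mark the list median, green dotted bars the median in water, and the dashed line the median of all probe sets at 0.17, with tubulins highest at 3.80 and mitochondrion-encoded genes lowest at -2.34.

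Genes of hormone response changed in ways that differ between members. GID1A and GID1C encode gibberellin receptors, and GID1A had 816 and 738 in dry seed and 208 and 229.8 in ABA (-1.81 ± 0.19 (SE), adjusted p = 1.4e-05). GID1C had 109.9 and 88.2 against 25.3 and 23.1 (-1.86 ± 0.27 (SE)). Both receptors thus fell with no overlap between groups. SPT, a bHLH factor of seed dormancy and germination, rose from 20.7 and 15.99 to 162 and 163 (2.91 ± 0.19 (SE), adjusted p = 7.38e-07). SLY1, the F-box protein that targets DELLA repressors, changed by 0.47 ± 0.19 (SE) and by -0.15 with a common median, and its call was lost without any single dry, 30 µM or water array (adjusted p from 0.058 to 0.202). EEL, a bZIP factor of the ABA pathway in seed, fell from 471 and 497 to 78.4 and 78.3 (-2.57 ± 0.19 (SE), adjusted p = 1.39e-06). GI, a clock and flowering gene, fell from 214 and 254 to 66.4 and 68.9 (-1.73 ± 0.20 (SE)).

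The protectants against drying that were tested moved both ways. Of 10 genes of late embryogenesis abundant (LEA) proteins and dehydrins 3 rose and 4 fell, with a median of 0.24. A further 10 probe sets of this list, named only by a locus code, were left out. The median of the 10 genes was -1.38 without dry replicate B, 1.05 without dry replicate A and -0.40 with a common median. These 10 genes thus had no stable common direction. The 4 that fell were LTI30, M17, AtLEA4-1 and LEA18. Both dry signals of each lay above the highest signal on the 30 µM arrays, so these genes could only be lower. COR47, a dehydrin induced by cold, had 7.13 and 6.01 in dry seed and 266 and 324 in ABA (4.82 ± 0.24 (SE), adjusted p = 1.52e-07). AT2G44060 (LEA26) had 47.9 and 31.9 against 207 and 308 (2.57 ± 0.30 (SE)). LTI30, another dehydrin, had 3534 and 2251 against 148 and 319 (-3.67 ± 0.68 (SE), adjusted p = 0.000795). The dry signals of LTI30 were 90.4% and 97.0% of the highest on their arrays and above the highest on the 30 µM arrays, so that its direction could not have been other than lower. COR47 rose without overlap. M17, a LEA protein, fell from 2269 and 1779 to 571 and 635 (-1.73 ± 0.42 (SE)). OLEO3 changed by -0.95 ± 0.22 (SE), adjusted p = 0.00357, and was not called with spike-in scaling (-0.23, adjusted p = 0.583).

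Among genes of storage lipid breakdown AIM1, a beta-oxidation enzyme, fell from 1071 and 1277 to 434 and 425 (-1.44 ± 0.18 (SE), adjusted p = 6.76e-05), and was not called with spike-in scaling (adjusted p = 0.0805). SDP1, the lipase of oil bodies, changed from 424 and 501 to 336 and 339 (-0.45 ± 0.15 (SE)), a call that was lost without dry replicate B or either 30 µM array (adjusted p from 0.104 to 0.135) and that turned to 0.27 with spike-in scaling. ICL, isocitrate lyase of the glyoxylate cycle, had 3260.5 and 100.4 in dry seed and 35.04 and 33.8 in ABA, and was not called (-3.93 ± 1.99 (SE)). Its dry arrays disagreed, with replicate A far above replicate B. Dry arrays were over 4-fold apart on the log scale used here in 33 probe sets, and 30 µM arrays in 8. SDH2-1 and SDH2-2, iron-sulfur subunits of succinate dehydrogenase in the respiratory chain, rose by 2.49 ± 0.16 (SE) and 1.68 ± 0.20 (SE). SDH2-1 went from 106 and 103 to 653 and 564, whereas SDH1-1, a flavoprotein subunit, was not called at 0.38. SWEET proteins carry sugars across membranes. Of 10 genes tested in the list of sugar and amino acid transporters (of 16 named) 2 fell, 1 rose and 7 were not called. SWEET6 gave 1203 and 1052 in dry seed and 24.5 and 26.1 in ABA (-5.27 ± 0.24 (SE), adjusted p = 8.9e-08). SAG29, also named SWEET15, rose from 15.1 and 16.4 to 162 and 193 (3.20 ± 0.42 (SE)). SWEET1 changed by -0.69, with no call without 30 µM replicate B (adjusted p = 0.075) and at 0.027 with spike-in scaling.

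Of 7 nuclear genes of photosynthesis and chlorophyll 5 rose and 2 fell, with a median of 1.26. PSBY, a small photosystem II protein, had 9.90 and 9.20 in dry seed and 115 and 111 in ABA (3.11 ± 0.25 (SE), adjusted p = 2.96e-06). PORB, which makes chlorophyllide in light, had 2.33 and 1.49 against 20.03 and 23.2 (2.12 ± 0.32 (SE)). RCA, the activator of Rubisco, rose by 1.69. The antenna genes LHCB4.1 and LHCB4.2 fell instead, from 491 and 522 to 191 and 241 and from 79.5 and 134 to 11.7 and 19.7 (-1.22 ± 0.21 (SE) and -2.47 ± 0.46 (SE)), while LHCB4.3 rose by 1.26. LHCB4.1 was not called with spike-in scaling (adjusted p = 0.206). CHIL, a helper protein of flavonoid synthesis, rose from 1.21 and 1.47 to 20.5 and 29.7 (2.43 ± 0.28 (SE)), and DFR of the same pathway was not called at -0.66.

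Antioxidant and detoxifying genes divided. Of 15 antioxidant genes 7 rose and 2 fell, with a median of 0.51, and with a common median 3 rose and 6 fell. SAPX, a stromal ascorbate peroxidase, went from 99.4 and 90.3 to 413 and 343 (1.95 ± 0.18 (SE), adjusted p = 6.3e-06). The thioredoxin gene ty2 rose from 52.6 and 85.8 to 217 and 185 and its relative TY1 fell from 621 and 771 to 143 and 135 (1.52 ± 0.27 (SE) and -2.28 ± 0.17 (SE)). Each change was without overlap between groups, so these 2 thioredoxins of the y type moved in opposite directions. GRXC1, a glutaredoxin, fell from 2318 and 1749 to 622 and 575 (-1.74 ± 0.20 (SE)). Glutathione transferases attach glutathione to reactive compounds, and 3 of 7 tested (of 13 named) rose and 2 fell, near the 36.7% and 26.0% of all probe sets. GSTU20 had 0.862 and 1.75 in dry seed and 97.7 and 119 in ABA (4.41 ± 0.23 (SE), adjusted p = 2.14e-07), and GSTU27 had 1.92 and 11.2 against 64.01 and 47.8. GSTU16 and GSTU28, both called lower, changed by -1.85 and -1.97.

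From dry seed to 30 µM ABA, transcripts of the 2 organelle genomes changed differently from each other. Of 12 mitochondrion-encoded genes 11 fell and 1 rose, with a median of -2.34 and of -3.09 in water. The gene cox2, for a subunit of cytochrome c oxidase, had 1356 and 1094 in dry seed and 47.8 and 29.6 in ABA (-4.87 ± 0.25 (SE), adjusted p = 1.59e-07), and nad5 of complex I had 357 and 445 against 38.7 and 33.2 (-3.34 ± 0.20 (SE)). These probe sets are uncertain, since Arabidopsis carries near-identical copies of mitochondrial genes in its nuclear genome. Of 68 plastid-encoded genes 18 rose and 15 fell, with a median of 0.13. That balance depended on scaling, with 7 rising and 33 falling and a median of -0.49 for a common median, and 36 and 4 with spike-in scaling. Neighbouring plastid genes are transcribed together, so these are not independent. Medians differed between classes of plastid genes, without a dividing line between expression machinery and photosynthesis, and these differences were not tested. Of 4 RNA polymerase subunits 3 rose and 0 fell (median 1.24), and of 15 ribosomal protein genes 7 rose and 2 fell (median 0.47). Of 6 ATP synthase genes 3 rose and 1 fell (median 0.88), and of 5 photosystem I genes 1 rose and 0 fell (median 0.49). Photosystem II had 1 of 15 rising and 6 falling (median -0.42), and the NDH complex 0 of 9 rising and 3 falling (median -0.24). The gene rps4, for a ribosomal protein, had 73.1 and 58.1 in dry seed and 319.6 and 451 in ABA (2.47 ± 0.32 (SE), adjusted p = 6.54e-05). rpoC2, a polymerase subunit, had 33.8 and 30.2 against 128 and 153 (2.001 ± 0.27 (SE)). Lowest were ndhG, with 241 and 97.4 against 21.5 and 28.7 (-2.45 ± 0.47 (SE)), and psbA, the D1 protein of photosystem II, with 159 and 322 against 45.5 and 64.1 (-1.99 ± 0.30 (SE)).

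**Figure D4:**
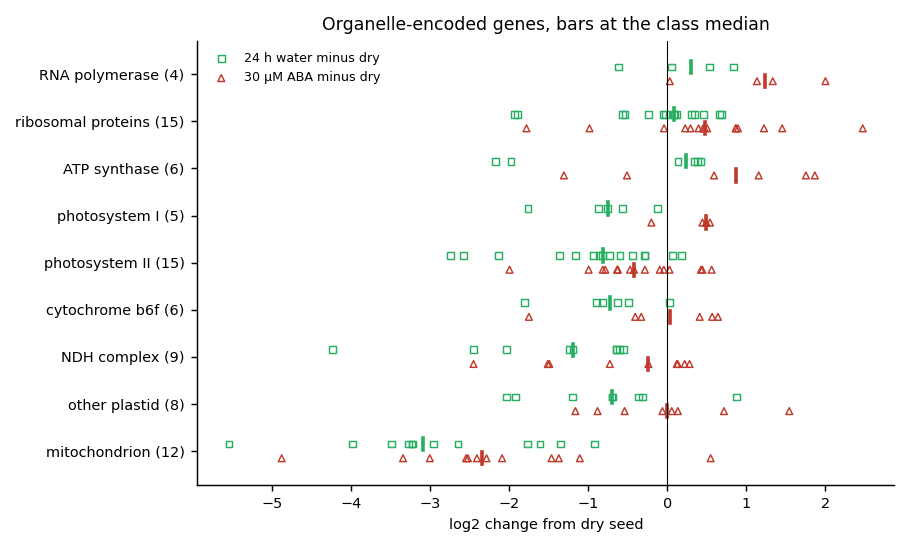
Log2 change from dry seed of organelle-encoded genes, by complex with the number of genes in brackets, after 24 h in water (green squares) and in 30 µM ABA (red triangles); bars mark class medians. Mitochondrial genes lie lowest, at a median of -2.34 in ABA, and plastid RNA polymerase genes highest, at 1.24 in ABA.

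The extent to which these changes were those of imbibition without ABA was read from the difference between 30 µM ABA and water, whose value uses no dry array, although its interval and test take their spread from all 8 arrays. Limma called 72 of 15922 probe sets (0.452%) in that difference, and for 77.6% of probe sets its 95% interval lay within 1 of 0 on the log2 scale, that is within 2-fold. Calls were few and depended on single arrays, with 85 and 84 without dry replicates A and B, 0 without either water array or without 30 µM replicate B, and 5 without 30 µM replicate A. The changes from dry seed in ABA and in water share the dry arrays, so they are only set side by side here. Of single-gene probe sets with a symbol, 117 were called with a rise and 29 with a fall of at least 4-fold in ABA while that interval lay within 2-fold of water. These counts are not shares, since such probe sets with a 4-fold change were not counted in total. Over all probe sets, 1807 rises and 911 falls of at least 4-fold were called. The 6 brightest risers were PYK10, TUA6, scpl29, scpl20, EXPA9 and scpl44. PYK10, a beta-glucosidase of endoplasmic reticulum bodies, had 12.3 and 23.3 in dry seed, 1423 and 1164 in ABA and 1854 and 1196 in water, a difference from water of -0.21 (95% interval -0.81 to 0.39). TUA6 had 1953 and 1429 in water and differed by -0.40 (95% interval -0.89 to 0.09). EXPA9 had 1537 and 1119 in water (-0.30 (95% interval -0.72 to 0.12)), and its arrays in ABA lay just below. Of these 6 genes, all but EXPA9 had a signal above 80% of the highest on an array of one of the 2 groups, and the highest signal was 2254 and 1546 on the water arrays, above that on both ABA arrays.

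The 6 fallers that were brightest in dry seed were SRC2, APG8H, PDC2, STZ, AER and CcdA. SRC2, a cold-induced protein, had 1526 and 1896 in dry seed, 372 and 412 in ABA and 318 and 497 in water (-0.02 (95% interval -0.59 to 0.55)). PDC2, pyruvate decarboxylase of fermentation, had 1694 and 1525 in dry seed, 213 and 245 in ABA and 133 and 219.9 in water (0.41 (95% interval -0.13 to 0.95)). AER, an alkenal reductase, had 1117 and 969.5, 198 and 210.3 and 184 and 188 in the same order (0.13 (95% interval -0.21 to 0.48)). For these genes ABA and water arrays overlapped or nearly did, while all dry arrays were far above. CcdA, which passes electrons across the thylakoid membrane, had 929.7 and 898, 113 and 97.7 and 129 and 108 (-0.17 (95% interval -0.56 to 0.22)). STZ differed from water by 0.21 (95% interval -0.53 to 0.95), and APG8H by -0.01 (95% interval -0.42 to 0.41).

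Other changes went part of the way. The 8 single-gene probe sets with the largest called difference from water were all higher in 30 µM ABA than in water and lower in 30 µM ABA than in dry seed. They name genes without a symbol in the gene tables used here. AT2G42560 had 1928 and 1447 in dry seed, 147 and 189 in ABA and 13.03 and 22.7 in water. Its change from dry seed was -3.29 ± 0.35 (SE), against -6.30 in water, a difference of 3.00 (95% interval 2.22 to 3.78, adjusted p = 0.0158). AT3G15280 had 3344 and 2322, 205 and 370.5 and 28.8 and 38.3 in that order (2.91 (95% interval 1.99 to 3.83, adjusted p = 0.0273)). Both ABA arrays thus lay between the dry and the water arrays. The other 6, AT4G36600, AT4G39130, AT2G19320, AT5G43770, AT1G27990 and AT5G45690, were above water by 2.27 to 2.78 and changed from dry seed by -3.68 to -1.52. That of AT4G39130 was not called without dry replicate A or 30 µM replicate A (adjusted p = 0.0668 and 0.0823). EEL, at 37.6 and 31.8 in water, was higher in ABA by 1.10 (95% interval 0.68 to 1.51, adjusted p = 0.0445). For LTI30, HIS1-3 and AGL67 the differences of 1.71 (95% interval 0.21 to 3.21), 1.47 (95% interval 0.45 to 2.48) and 1.26 (95% interval 0.59 to 1.93) were not called. Some named risers lay below water, also without a call. The differences were -1.71 (95% interval -2.92 to -0.50) for ATPMEPCRB and -1.36 (95% interval -2.07 to -0.64) for PORB. They were -0.75 (95% interval -1.32 to -0.19) for PSBY and -0.58 (95% interval -1.01 to -0.16) for SPT. In water these 4 genes rose from dry seed by 3.84, 3.47, 3.87 and 3.49.

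**Figure D5:**
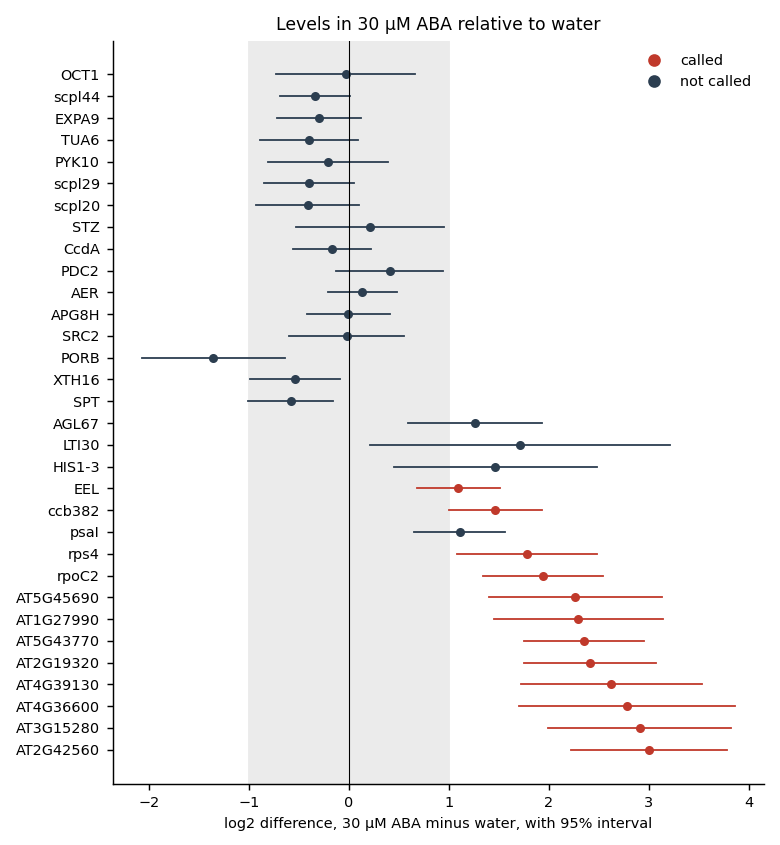
Log2 difference between 30 µM ABA and water (points) with its 95% interval (lines) for 32 named genes, red where called, with a grey band within 1 of 0. Genes from OCT1 to SRC2 lie inside the band, and all of these but OCT1 were picked for that. The 8 genes at the bottom, named by locus, were picked for the largest called differences and lie between 2.27 and 3.00.

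Of the 68 plastid genes, 67 had a positive difference from water and 10 of these were called, beside 0.452% of all probe sets. Mitochondrion-encoded genes shared this shift, with 11 of 12 above water and 1 called. The median difference from water was 0.67 for plastid and 0.65 for mitochondrion-encoded genes, against 0.016 over all probe sets. Among plastid genes the clearest was rpoC2, which had 38.9 and 28.6 in water, close to its dry level, and differed by 1.94 (95% interval 1.34 to 2.55, adjusted p = 0.0273). rps4 had 87.9 and 132 in water and differed by 1.78 (95% interval 1.08 to 2.49, adjusted p = 0.0458). Only 2 single-gene probe sets were called in opposite directions from dry seed in ABA and in water, and both were of organelle genes. The mitochondrial gene ccb382, of cytochrome c assembly, had 86.1 and 90.1 in dry seed, 131 and 130.3 in ABA and 39.3 and 51.1 in water. The plastid gene psaI, of photosystem I, had 66.7 and 86.7, 104 and 122 and 51.4 and 48.7. Their rises over dry seed in ABA were small, 0.55 ± 0.21 (SE), adjusted p = 0.0403 and 0.54 ± 0.20 (SE), adjusted p = 0.0398, and lay at -0.069 and -0.074 with a common median. The call of ccb382 was lost without any single dry or 30 µM array (adjusted p from 0.0857 to 0.137). That of psaI was lost without dry replicate A or any single 30 µM or water array (adjusted p from 0.0506 to 0.223).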

How the data were processed

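Seed RNA was measured on 8 single-colour arrays, 2 in each of 4 groups taken from the labels. Per the labels, targets carried biotin, and the submitters' processing notes list MAS5 without its version. The authors deposited 1 signal intensity per probe set and array on a linear scale, with a common trimmed mean (2% trimmed at each end). No detection call was used, so low signals carry no bound, and the small number of arrays sets the precision.

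The 64 control probe sets were left out. Of 22746 others, 13513 named 1 gene, 503 several and 8730 none in the platform annotation, and 13436 of the single-gene sets matched the RefSeq gene table of TAIR10.1, used for names only. Signals were taken as log2(signal + 3.99), and probe sets with a mean above the 30th percentile (15922) entered 1 fit over all 8 arrays in limma 3.58.1 (R 4.3.3; lmFit and eBayes with trend, 4 residual degrees of freedom), tested on simulated data. Adjusted p-values are Benjamini-Hochberg values of two-sided tests, with a threshold of 0.05. No permutation test was run, since with 2 arrays against 2 its smallest p is 0.333. Fold changes on this scale understate those of dim probe sets.

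The comparison and the gene lists were chosen with earlier results of these data known. Lists count only genes that the tables name beyond a locus code, each by its brightest probe set, so those of ribosomal proteins and translation factors had no member to test, and that of heat shock proteins, which were sought by descriptions the tables lack, took in none of the heat shock genes named by symbol. Genes named are the 8 highest and 8 lowest changes among brighter, non-overlapping called genes with a functional name; of each list up to 2 called risers and 2 fallers, or the smallest p where fewer were called; the 6 brightest risers and fallers within 2-fold of water; the 8 largest called differences from water; and genes called in opposite directions in ABA and water. Further members named beside them, ICL among them, were chosen after their values were seen. ALATS of aminoacyl-tRNA synthesis (0.17), AQI, an aquaporin interactor (0.67), and PAP85 of storage proteins (-0.56) were not called.

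Alternatives were the pseudocount, the filter, 3 scalings, the 4 arrays alone, no trend, a replicate block, a 2-fold threshold and leaving out each array. Leaving out probe sets near the top of an array's range was added after seeing the data.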

Additional observations from a re-analysis of the deposited data

Results flagged for a closer look

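For 12 named genes the change from dry seed in 30 µM ABA differed from that in water, by the direct test of 30 µM ABA minus water in limma. On the log2 scale the difference was 3.00 for AT2G42560, 2.91 for AT3G15280, 2.78 for AT4G36600, 2.62 for AT4G39130, 2.41 for AT2G19320, 2.35 for AT5G43770, 2.29 for AT1G27990 and 2.27 for AT5G45690. For organelle genes it was 1.94 for rpoC2, 1.78 for rps4 and 1.46 for ccb382, and it was 1.10 for EEL. All 12 were higher in ABA than in water. None of these calls was kept when either water array or either 30 µM array was left out.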

How the results depend on the processing

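The count of probe sets called against dry seed, 9995, stayed within 1.5 times under every alternative run, from 6981 with a 2-fold threshold added to 10437 with a common median. It was 8168 to 10025 when 1 array was left out and 9680 without the 382 probe sets near the top of an array's range. The listed genes called, 133, also stayed within 1.5 times. The rerun without a filter kept the list members of the main filter, so it does not show how members left out behaved. No source says what the replicate letters mark. Deviations of arrays with the same letter correlated at r = 0.056 between 30 µM ABA and dry seed and at r = 0.230 between 30 µM ABA and water, which does not settle whether the letters pair the arrays, and a replicate block gave 10182 calls. Calls against water among named genes, 12, fell to 7 with a pseudocount of 1 and ranged from 0 to 13 when 1 array was left out. Over all probe sets they were 72, against 38 with a pseudocount of 1, 204 with spike-in scaling, 2 without the trend, 11 without a filter and 135 with the replicate block. The cause was not tested, though leaving out an array leaves 1 in its group. Directions that turned with a common median were those of ALATS (-0.47), SLY1 (-0.15), ccb382 (-0.069) and psaI (-0.074), and with spike-in scaling those of HON4 (0.15), SDP1 (0.27), SWEET1 (0.027) and ACLA-3 (0.45). List medians turned with a common median for LEA proteins (-0.40), aminoacyl-tRNA synthetases (-0.47), histones (-0.37), plastid-encoded genes (-0.49) and antioxidant enzymes (-0.027), and with spike-in scaling for gibberellin genes (0.033) and sugar transporters (0.12). The LEA median ranged from -1.38 without dry replicate B to 1.05 without dry replicate A. That of 4 histones also turned with a pseudocount of 16 (-0.044), a filter at the 50th percentile (-0.56) and without dry replicate A, with a range of -0.16 to 0.29 when 1 array was left out. In all, 2198 recomputed changes of named genes against dry seed kept direction and call, 41 lost the call, 8 gained it and 8 turned. Promoter motif counts were not run.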

Other observations

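Groups described here were picked after their values were seen, so they are given as values with no support from their counts. Of genes of DNA replication and chromatin assembly all 8 picked, PRL among them, were called higher, with a median log2 change of 2.39. ICU2, the catalytic subunit of DNA polymerase alpha, had 2.27 and 5.14 in dry seed and 34.3 and 39.8 in 30 µM ABA (2.44 ± 0.27 (SE)), and the histone chaperone gene ASF1B had 34.3 and 29.8 against 149 and 137 (2.03 ± 0.22 (SE)). All 6 genes picked for growth at the cell surface were also called higher. SKU5, a membrane-anchored protein of directional root growth, rose from 8.43 and 3.11 to 473 and 549.8, and the wall-sensing receptor kinase gene THE1 from 1.61 and 1.80 to 71.00 and 90.8 (5.77 ± 0.26 (SE) and 3.89 ± 0.25 (SE)). WLIM1, an actin-bundling protein, rose from 1.53 and 2.94 to 148 and 166 (4.70 ± 0.19 (SE)). Of the endoplasmic reticulum body genes, NAI2, needed to form the bodies, had 9.94 and 15.4 in dry seed and 568 and 875 in ABA (5.43 ± 0.26 (SE)), and their transcription factor NAI1 had 1.53 and 6.98 against 66.5 and 72.6 (3.24 ± 0.29 (SE)). The plastid ATP synthase subunit gene ATPC1, encoded in the nucleus, went from 12.01 and 5.25 to 447 and 435 (5.19 ± 0.24 (SE)), and CHLI2 of chlorophyll synthesis from 8.46 and 1.78 to 79.02 and 94.98 (3.42 ± 0.33 (SE)).

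Several small families held members that moved in opposite directions. NDB3 rose by 6.15 and NDB1 by 2.66, while NDB2, another external NAD(P)H dehydrogenase, fell from 628 and 555 to 85.1 and 128 (-2.45 ± 0.39 (SE)). OCT1 rose by 7.07 and its relative OCT4 fell from 594 and 679.7 to 75.8 and 85.1 (-2.92 ± 0.20 (SE)). Of heat-related genes ATHSP22.0, a small heat shock protein, fell from 428 and 209.8 to 18.3 and 13.8 and HSA32, of heat tolerance, from 481 and 278 to 26.4 and 23.6, whereas Hsp70-2 rose from 34.4 and 37.8 to 353 and 321 and Fes1B, an Hsp70 partner, from 19.8 and 10.8 to 441 and 404. The changes were -3.93, -3.68, 3.09 and 4.50. ATP-citrate lyase makes acetyl-CoA in the cytosol, and ACLA-1, ACLA-2 and ACLB-1 rose by 2.83, 2.74 and 2.53, while ACLA-3, bright already in dry seed at 371 and 421, was not called (-0.27, or 0.45 under spike-in scaling). Over larger families, 11 of 31 UDP-glycosyltransferases rose and 13 fell, and 3 of 11 ubiquitin-conjugating enzymes rose and 7 fell, beside 36.7% and 26.0% of all probe sets.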
